A study of Mus musculus with 10 samples.

Results

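The genes described here are 35 genes that mark or build the B, T and NK cell lineages. The values are the contacts of captured fragments that hold an end of these genes, in bone marrow cells with or without leukaemia mutations. The members were chosen by name, and a bait, the captured HindIII fragment, was assigned to a gene when the fragment held the lower or the higher end of the gene in the mouse gene table. Of the 35 genes, 23 had a listed bait, and 12 had none: Pax5, Cd79a, Pou2af1, Ms4a1, Bach2, Cd3d, Cd3g, Cd8a, Cd28, Lck, Bcl11b and Tbx21. The 23 genes lay on 23 baits, because Vpreb1 and Igll1 shared 1 bait and Cd4 had 2. These baits carried 155 of the 88624 bait and other-end pairs listed for the progenitor libraries and 16 of the 25622 pairs listed for the neutrophil libraries, and 11 pairs stood in both lists.

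Promoter-capture Hi-C ligates crosslinked chromatin fragments that lay close together in the nucleus and then enriches those that hold a promoter. The 10 libraries came from C57BL/6 mice and formed 5 groups of 2 biological replicates. The WT neutrophils came from bone marrow by an isolation kit, and the DM, Flt3-ITD, Npm1c and WT haematopoietic stem and progenitor cells (HSPCs) were lineage-negative bone marrow cells. DM mice were Npm1flox-cA/+;Flt3ITD/+;Mx1-Cre+, Flt3-ITD mice were Flt3ITD/+, Npm1c mice were Npm1flox-cA/+;Mx1-Cre+, and the control mice were labelled WT, with no allele or Cre named. The labels give no age and do not say how many mice went into a library. Mx1-Cre is driven by an interferon-inducible promoter that is active in blood cells and in other tissues, and no Cre is named for the Flt3-ITD mice, so the mutations were not restricted to lymphoid cells. The lineage depletion is meant to remove mature B, T and NK cells, and a contact score gives no RNA level and no share of cells, so a difference in contacts cannot be told apart from a difference in the cell types present.

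Each deposited score belongs to 1 pair in 1 library and is never negative. The labels do not define its baseline, so scores are used here as relative values. A pair is called a contact of a group when it scored 5 or more in both replicates. Every listed HSPC pair met this in at least 1 HSPC group, and every neutrophil pair met it in the neutrophils. Over the whole HSPC list, 60.8% and 61.8% of pairs scored 5 or more in the DM libraries, 64.1% in each Flt3-ITD library, 51.8% and 61.5% in the Npm1c libraries and 53.4% and 47.0% in the WT libraries. The files hold no counts, so depth is unknown.

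B cell identity is set up by Ebf1, Pax5 and Foxo1, which activate the surrogate light chain and receptor genes and, with the recombinases Rag1 and Rag2, allow antigen receptor genes to be assembled. T cell identity depends on Tcf7, Gata3 and Bcl11b, and NK and effector programmes on Eomes and Tbx21. These genes are mostly silent or low in stem cells and myeloid cells, and early lymphoid-primed progenitors, in which signalling through Flt3 promotes the lymphoid fate, are known to start some of them.

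Start-site windows of 300 bases (250 before and 50 after the start) were found in the RefSeq table of GRCm38.p6 for 19 of the 23 genes with a bait. Such a start site lay inside the bait for 16 genes and outside it for Cd22, Vpreb3 and Gata3. Cd79b, Cd4, Cd8b1 and Ccr7 had no window. The promoters of Foxo1 and Cd22 are printed because their baits gave the calls among the members. Both hold 1 match to TCCC, any 2 bases and GGGA, a form of the site recognised by EBF factors, which was searched on both strands and which occurs in 0.904% of the 32851 windows of the table. The capitals mark that match. The Foxo1 window is chr3:52268087-52268386 on the plus strand and the Cd22 window is chr7:30878979-30879278 on the minus strand.
Foxo1: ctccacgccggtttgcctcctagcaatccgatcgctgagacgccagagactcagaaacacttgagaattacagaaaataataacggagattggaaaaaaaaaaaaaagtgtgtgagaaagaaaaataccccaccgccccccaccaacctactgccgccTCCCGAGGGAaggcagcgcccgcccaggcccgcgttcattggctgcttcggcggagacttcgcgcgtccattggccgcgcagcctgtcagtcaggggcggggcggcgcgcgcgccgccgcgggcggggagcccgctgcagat
Cd22: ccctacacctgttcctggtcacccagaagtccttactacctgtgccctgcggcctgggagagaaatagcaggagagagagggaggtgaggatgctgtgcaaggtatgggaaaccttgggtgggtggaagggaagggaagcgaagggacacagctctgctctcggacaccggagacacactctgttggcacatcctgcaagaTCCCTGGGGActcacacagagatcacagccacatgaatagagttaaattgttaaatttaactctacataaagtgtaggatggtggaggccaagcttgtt
The Foxo1 window holds 31 CG dinucleotides and the Cd22 window 4, against a median of 7 over all windows. The Cd22 window lies 709 bp outside its bait, which holds the higher end of the gene and not this start site. As Cd22 lies on the minus strand, that higher end is where the annotated gene begins. Letters of sites for STAT, RUNX, PU.1 and forkhead factors were also searched in the windows of all members with a bait. The Foxo1 and Cd22 windows held none of these, while the Rag1 window, for example, held 2 RUNX matches and 1 PU.1 match. A match to such letters is a description and not a bound site, and a link between the EBF matches and the calls was not tested.

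The promoters of Ebf1 and Rag2 are shown because the Ebf1 bait had the highest difference from WT among member baits with at least 3 pairs, and because the Rag2 window shows where a bait begins. The Ebf1 window is chr11:44617850-44618149 on the plus strand, and its capitals mark 1 match to TGTGGT, the core recognised by RUNX factors, which is found in 16.8% of all windows. The Rag2 window is chr2:101624462-101624761 on the plus strand, and its capitals mark the HindIII site AAGCTT, at position 7 of the window, at which the chromatin was cut.
Ebf1: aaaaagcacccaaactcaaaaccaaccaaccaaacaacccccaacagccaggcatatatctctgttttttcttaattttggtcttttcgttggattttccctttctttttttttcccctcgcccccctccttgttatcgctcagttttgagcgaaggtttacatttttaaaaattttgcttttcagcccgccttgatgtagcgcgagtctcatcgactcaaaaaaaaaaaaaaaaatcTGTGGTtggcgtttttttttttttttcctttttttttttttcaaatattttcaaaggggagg
Rag2: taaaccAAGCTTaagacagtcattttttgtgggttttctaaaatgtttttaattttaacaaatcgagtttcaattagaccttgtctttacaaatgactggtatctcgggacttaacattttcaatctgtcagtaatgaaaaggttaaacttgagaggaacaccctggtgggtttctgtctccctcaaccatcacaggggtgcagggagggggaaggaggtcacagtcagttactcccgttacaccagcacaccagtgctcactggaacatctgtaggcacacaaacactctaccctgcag
The Rag2 bait starts at position 101624469, next to that site, so nearly the whole window lies inside the captured fragment. A HindIII site was present in 7.46% of all windows.

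The member baits had the most contacts in DM HSPCs and the fewest in WT HSPCs. Of the 155 HSPC pairs, 89 were contacts in DM HSPCs (57.4%), 83 in Flt3-ITD HSPCs (53.5%), 56 in Npm1c HSPCs (36.1%) and 41 in WT HSPCs (26.5%). Over all protein-coding genes with a bait, the same shares were 48.9% in DM, 51.0% in Flt3-ITD, 41.4% in Npm1c and 34.6% in WT HSPCs. The number of DM contacts was thus 2.17 times the number of WT contacts for the members and 1.41 times for all genes. Not all roles shared this excess. Genes of the T cell receptor complex, co-receptors and kinases had 22 contacts in DM, 25 in Flt3-ITD, 22 in Npm1c and 22 in WT HSPCs. The B lineage transcription factors had 23 in DM and 4 in WT HSPCs, and the NK, effector and homing genes had 15 and 2. Of the 21 member baits with HSPC pairs, 17 had more contacts in DM than in WT HSPCs and 2 had fewer, whereas over all 9405 gene baits 50.4% had more and 27.2% fewer. Against WT, 13 of the 21 had more contacts in Flt3-ITD HSPCs (49.8% of all gene baits) and 10 in Npm1c HSPCs (40.8% of all gene baits). These counts are descriptions with no test, since the members were chosen with earlier results of these data known, and the 3 comparisons share the WT libraries.

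**Figure D1:**
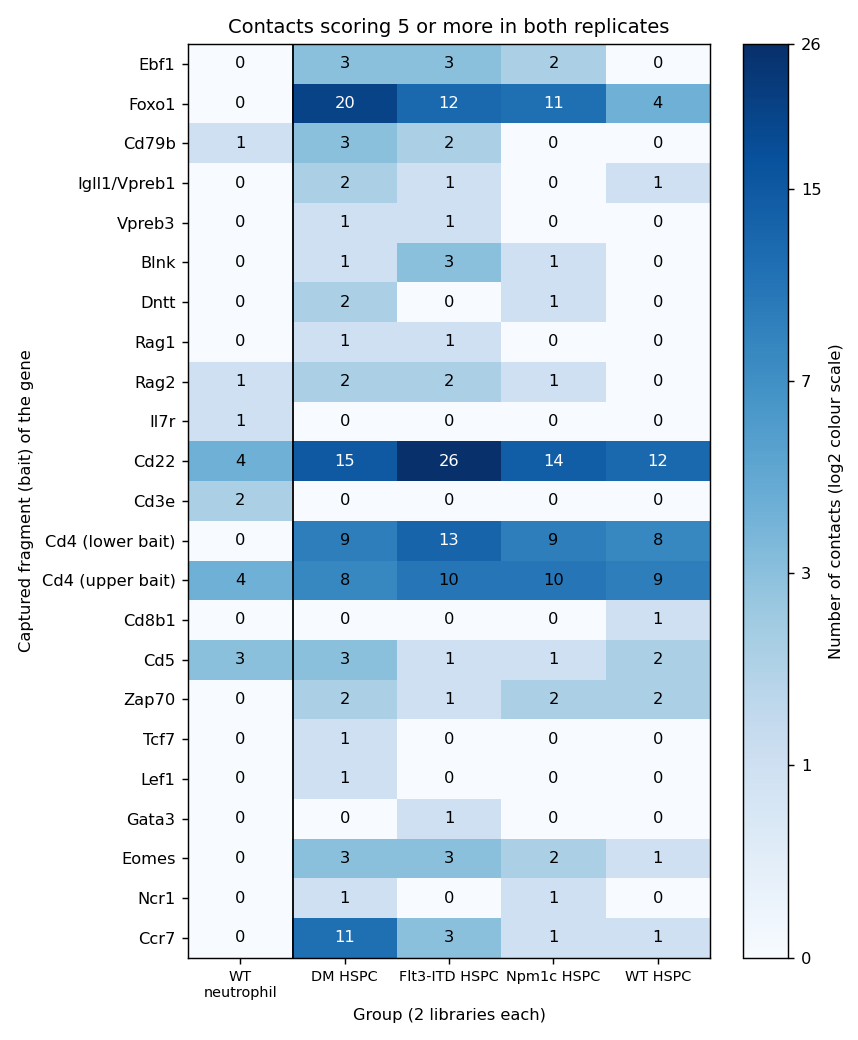
Number of contacts (pairs at a score of 5 or more in both replicates) of each member bait (rows) in WT neutrophils (left of the line) and in DM, Flt3-ITD, Npm1c and WT HSPCs; 0 means no contact. Foxo1 had 20 contacts in DM and 4 in WT HSPCs, Ccr7 11 and 1, and Cd22 had 26 in Flt3-ITD and 12 in WT HSPCs; 7 baits had a neutrophil contact.

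Contacts were unevenly spread over the baits. The median member bait had 3 HSPC pairs, against 4 for all genes, and 5 baits (Cd22, Foxo1, both Cd4 baits and Ccr7) had 11 or more each. Without these baits, left out after their values were seen, 45 pairs remained, of which 26 were contacts in DM, 19 in Flt3-ITD, 11 in Npm1c and 7 in WT HSPCs. The other end was itself a listed bait in 38.1% of the 155 pairs and in 24.2% of the pairs of all genes. Member contacts spanned a median of 216 kb, beside 215 kb for all genes, and none of the member pairs joined different chromosomes.

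Other gene lists place these counts. A list of 70 other B, T and NK genes, of which 40 had a bait with 371 pairs in all, had 222 contacts in DM, 204 in Flt3-ITD, 113 in Npm1c and 76 in WT HSPCs, a DM to WT ratio of 2.92. Mature neutrophil genes had a ratio of 2.39, macrophage and dendritic cell genes 2.09, stem and progenitor genes 1.67 and erythroid genes 0.56. More contacts in DM than in WT HSPCs were therefore also seen at baits of myeloid genes, and the part of cell composition in these counts was not tested.

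**Figure D2:**
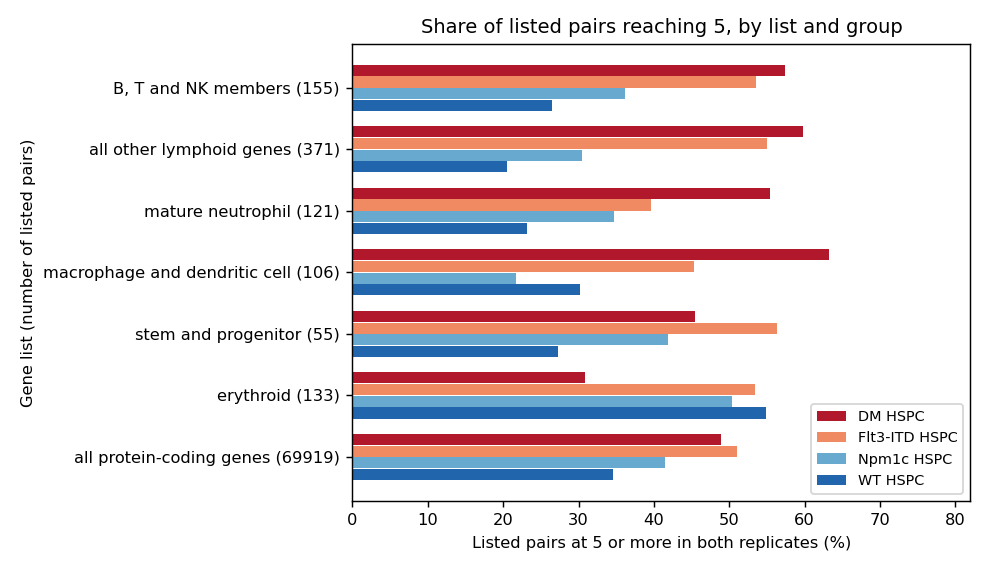
Share of the listed HSPC pairs of each gene list that were contacts in DM, Flt3-ITD, Npm1c and WT HSPCs; the number of pairs is given beside each list. For the B, T and NK members the bars stand at 57.4% in DM, 53.5% in Flt3-ITD, 36.1% in Npm1c and 26.5% in WT HSPCs, and for erythroid genes the DM bar, at 30.8%, is below the WT bar, at 54.9%.

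To compare groups over replicates, the mean of log2(score + 1) over the pairs of a bait was taken in each library. A pair entered the mean if a group other than those compared had reached 5 in both replicates, and baits with at least 10 such pairs were tested with limma over the 8 HSPC libraries, with Benjamini-Hochberg adjustment over all baits. The outside groups of a mutant against WT are other mutants, so pairs that are high in mutants remain favoured. Pairs of 1 bait share the bait and neighbouring fragments are not independent, so the replicates are the libraries. With 2 libraries against 2, an exact permutation test of a single value cannot go below p = 0.333.

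Foxo1, a forkhead factor that B cell precursors need for expression of the recombinases and of the interleukin-7 receptor, had the highest DM count of all member baits. Its 28 listed pairs all lay on 1 side of the bait (chr3:52266637-52272771), beyond the higher end of the gene, 475 to 739 kb away, in the interval chr3:52739163-53015349. None of the 28 listed fragments holds the end of a coding gene, no coding gene other than Foxo1 lies between the bait and the interval, and the only gene that overlaps the fragments is Cog6. Only 1 other bait, with 1 pair, contacted any of these fragments. The Foxo1 fragments were at 5 or more in both replicates 20 times in DM, 12 times in Flt3-ITD, 11 times in Npm1c and 4 times in WT HSPCs, and none was a neutrophil contact. By library, 22 and 26 of the 28 reached 5 in DM HSPCs, 16 and 20 in Flt3-ITD, 14 and 22 in Npm1c, and 11 and 7 in WT HSPCs. Both DM libraries were thus above both WT libraries. DM alone brought 9 of the 28 pairs into the list, so counts and medians over all 28 favour DM. The median score of the 28 was 6.87 and 7.16 in DM, 5.58 and 5.79 in Flt3-ITD, 4.64 and 5.86 in Npm1c, and 4.10 and 3.79 in WT HSPCs.

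Over the 17 Foxo1 pairs chosen without the DM and WT scores, the bait mean was 2.81 and 3.10 in DM HSPCs and 2.49 and 2.0 in WT HSPCs. Foxo1 rose in DM against WT HSPCs by 0.71 (SE 0.19) on the log2(score + 1) scale, with a limma adjusted p = 0.0404. It was the 1 member bait called among 4 tested, where 7.55% of all 1841 tested baits were called (117 higher and 22 lower, or 82 higher and 133 lower with quantile normalization) and the median difference of all baits was 0.09. An unadjusted limma p under 0.05 was reached by 1 of the 4 member baits, beside 25.9% of all baits. The call held under 3 of 13 alternatives (a pseudocount of 0.5, all listed pairs and without WT replicate 1), and the adjusted p ran from 0.0119 to 0.287 over the 13. It was lost, among others, without DM replicate 1 (0.86, adjusted p = 0.0831), DM replicate 2 (0.57, adjusted p = 0.258) or WT replicate 2 (0.47, adjusted p = 0.287), and with quantile normalization (0.50, adjusted p = 0.0604). Against the single mutants, the DM bait mean was 3.01 and 3.14 beside 2.83 and 2.81 in Flt3-ITD HSPCs over 13 pairs (difference 0.25, SE 0.16, limma adjusted p = 0.378), and 2.86 and 3.19 beside 2.59 and 2.82 in Npm1c HSPCs over 14 pairs (difference 0.32, SE 0.20, limma adjusted p = 0.402). Foxo1 in Flt3-ITD against WT HSPCs had 2.74 and 2.70 against 2.44 and 2.11 over 25 pairs, without overlap and without a call. In Npm1c against WT HSPCs it had 2.27 and 2.76 against 2.48 and 2.09 over 26 pairs, with overlap and without a call.

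Single Foxo1 fragments differed in how far they were shared. The fragment 707 kb away (chr3:52975628-52978541) scored 16.3 and 14.5 in DM, 8.4 and 14.6 in Flt3-ITD, 15.7 and 6.1 in Npm1c, and 9.4 and 4.5 in WT HSPCs. The fragment 637 kb away (chr3:52905442-52907915) scored 5.9 and 5.1 in DM, 2.7 and 1.7 in Flt3-ITD, 1.1 and 0.0 in Npm1c, and 0.6 and 0.5 in WT HSPCs. It was a contact in DM alone and was listed through its DM scores, so its values are a description.

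**Figure D3:**
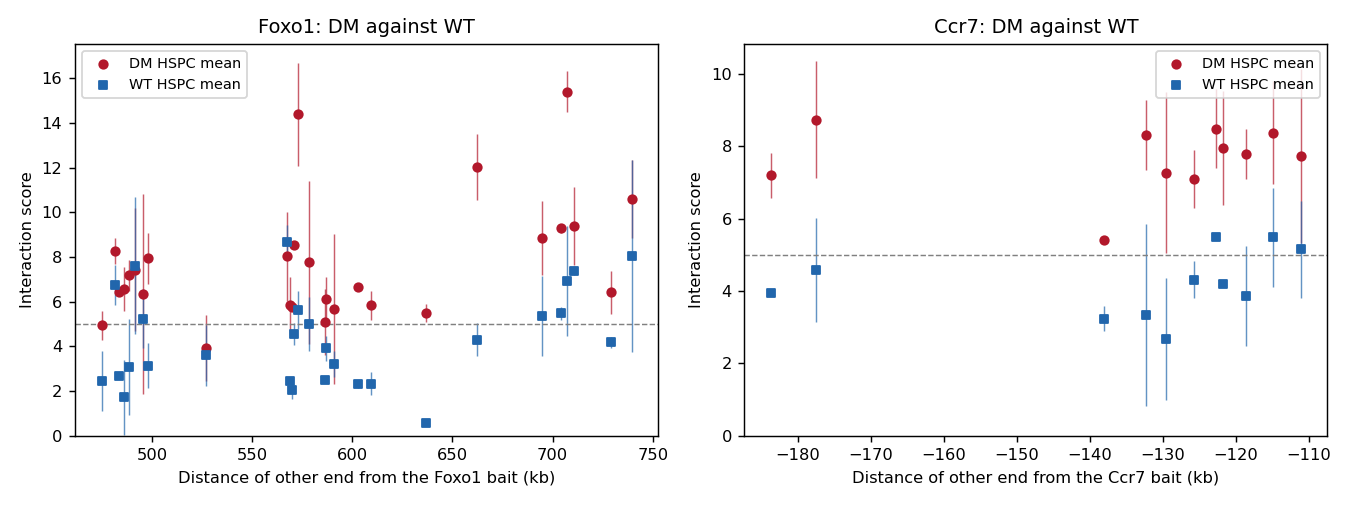
Interaction scores of the listed fragments of the Foxo1 bait (left) and the Ccr7 bait (right) against their distance from the bait in kb, in DM (circles) and WT HSPCs (squares). Symbols are the mean of 2 replicates, vertical lines join the replicates and the dashed line marks a score of 5; the Foxo1 fragments lie 475 to 739 kb away on 1 side, and all 11 Ccr7 fragments are above the line in DM HSPCs.

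Ebf1, the pioneer factor that starts the B cell programme, had 5 pairs, all within 14.2 kb at 385 to 397 kb from its bait (chr11:44612436-44618517), around the far end of its own gene. Of these, 3 were contacts in DM, 3 in Flt3-ITD, 2 in Npm1c and none in WT HSPCs. The fragment that holds the end of Ebf1 (chr11:45005756-45010953) scored 11.3 and 7.8 in DM, 7.3 and 14.2 in Flt3-ITD, 7.0 and 10.1 in Npm1c, and 4.7 and 2.1 in WT HSPCs. Every mutant library stood above both WT libraries at this fragment. With no WT contact at this bait, the fragment was listed through mutant scores, which favours this order. The bait had too few pairs for the main test. With a minimum of 3 pairs its mean was 2.64 and 2.75 in DM and 1.74 and 1.53 in WT HSPCs (difference 1.06, SE 0.27, limma adjusted p = 0.0817), and 2.74 and 2.98 in Flt3-ITD beside 2.38 and 1.45 in WT HSPCs (difference 0.95, SE 0.28, limma adjusted p = 0.133). These were the highest differences from WT among the member baits with at least 3 pairs, and neither passed.

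The pre-B-cell and B-cell receptor genes had few contacts. Cd79b, a signalling chain of the B cell receptor, shared its bait with Scn4a and had 3 pairs, all of them contacts in DM HSPCs, 2 in Flt3-ITD and none in Npm1c or WT HSPCs. Its pair with the fragment of Icam2, an adhesion molecule of endothelial cells and leukocytes, 77 kb away, scored 5.0 and 5.1 in WT neutrophils, and 10.3 and 11.9 in DM, 7.7 and 6.3 in Flt3-ITD, 5.0 and 5.4 in Npm1c, and 5.9 and 4.0 in WT HSPCs. Both DM libraries were the highest, an order favoured by the listing of this pair through DM and Flt3-ITD scores. The Npm1c and WT libraries overlapped, and the first Npm1c score, 5.0 after rounding, was below 5. Vpreb1 and Igll1, which encode the surrogate light chain, lay with Top3b on 1 bait with 4 pairs, 2 of them contacts in DM, 1 in Flt3-ITD, none in Npm1c and 1 in WT HSPCs. Vpreb3, a further surrogate light chain partner, had 2 pairs, but its bait holds Chchd10, Gm867 and Mmp11 as well and not the start site in the table. Blnk, the adaptor that links the receptor to downstream kinases, had 3 pairs, 1 a contact in DM, 3 in Flt3-ITD, 1 in Npm1c and none in WT HSPCs. The 2 WT libraries differed at these pairs, with medians of 9.17 and 3.02.

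Dntt, the polymerase that adds untemplated nucleotides at receptor junctions, lies near Blnk, and both baits contacted the same fragment in Cc2d2b (chr19:40757678-40767659). The Dntt pair with it scored 5.2 and 5.7 in DM, 1.9 and 2.8 in Flt3-ITD, 6.4 and 7.4 in Npm1c, and 5.2 and 2.6 in WT HSPCs. The Blnk pair with it scored 7.6 and 5.2 in DM, 5.5 and 5.4 in Flt3-ITD, 4.9 and 7.9 in Npm1c, and 11.0 and 3.0 in WT HSPCs. Thus the fragment was a Dntt contact in DM and Npm1c and a Blnk contact in DM and Flt3-ITD HSPCs. Rag1 and Rag2, the recombinase that cuts antigen receptor genes, are neighbours with separate baits. Rag1 had 1 pair, 173 kb away (chr2:101477961-101478495), which scored 5.4 and 6.3 in DM, 6.1 and 5.5 in Flt3-ITD, 2.7 and 3.4 in Npm1c, and 4.7 and 0.2 in WT HSPCs. The DM and Flt3-ITD libraries lay above the Npm1c and WT libraries, an order favoured by the listing of this pair through DM and Flt3-ITD scores.

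Rag2 contacted the fragments of Prr5l and Commd9, 256 and 261 kb away on the other side. The Rag2 and Prr5l pair scored 15.3 and 9.8 in WT neutrophils and 7.1 and 3.9 in WT HSPCs, and like every neutrophil pair it was listed through its neutrophil scores. In the mutants it scored 5.7 and 6.2 in DM, 7.3 and 6.2 in Flt3-ITD, and 4.9 and 5.1 in Npm1c HSPCs, all below both neutrophil values.

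Il7r, the receptor chain for interleukin-7 that lymphoid progenitors depend on, had no HSPC pair. Its bait (chr15:9528618-9533170) had 1 neutrophil contact, 654 kb away in Prlr, at 5.1 and 5.5, just above the threshold.

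Cd22, an inhibitory lectin of the B cell surface, had the most pairs of any member bait, 33. Unlike Foxo1 its contacts lay on both sides of the bait (chr7:30879987-30881477), 22 before and 11 after it, over chr7:30586228-31120797, a gene-dense region in which 18 of the other ends were baits themselves. The fragments include those of the free fatty acid receptor genes Ffar2 and Ffar3, of Dmkn and of Usf2 with Lsr. Contacts numbered 4 in WT neutrophils, and 15 in DM, 26 in Flt3-ITD, 14 in Npm1c and 12 in WT HSPCs. By library, 19 and 21 of the 33 reached 5 in DM, 26 and 30 in Flt3-ITD, 20 and 15 in Npm1c, and 17 and 16 in WT HSPCs. Flt3-ITD HSPCs therefore stood highest, with DM above WT by a smaller margin. A further 43 baits contacted the same fragments with 482 pairs, and these numbered 383 contacts in DM, 301 in Flt3-ITD, 178 in Npm1c and 168 in WT HSPCs, so the neighbouring baits had their highest count in DM HSPCs.

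Over the 21 Cd22 pairs chosen without the Flt3-ITD and WT scores, the bait mean was 2.89 and 3.28 in Flt3-ITD and 2.35 and 2.60 in WT HSPCs. Cd22 rose in Flt3-ITD against WT HSPCs by 0.61 (SE 0.18, limma adjusted p = 0.0495). It was 1 called of 5 member baits tested, where 7.21% of all 1858 tested baits were called (134 higher and 0 lower, or 5 higher and 2 lower with quantile normalization) and the median difference of all baits was 0.28. An unadjusted limma p under 0.05 was reached by 3 of the 5 member baits, beside 33.3% of all baits. The call was lost under each alternative except the use of all listed pairs, where the Flt3-ITD scores took part in the choice (0.65, adjusted p = 0.0306), and quantile normalization, which brings the libraries to 1 distribution, left a difference of 0.34 (adjusted p = 0.396). At the fragment of Dmkn, 116 kb away (chr7:30763637-30765083), the scores were 11.3 and 14.1 in DM, 18.6 and 23.7 in Flt3-ITD, 15 and 10.8 in Npm1c, and 5.2 and 7.5 in WT HSPCs (Flt3-ITD minus WT 1.60, SE 0.34, limma adjusted p = 0.111). At the fragment of Gapdhs and Sbsn, 134 kb away, they were 7.3 and 7.8 in DM, 16.3 and 8.4 in Flt3-ITD, 5.2 and 3.7 in Npm1c, and 3.6 and 3.6 in WT HSPCs (Flt3-ITD minus WT 1.48, SE 0.37, limma adjusted p = 0.159). For DM against WT the Cd22 mean was 2.78 and 2.81 against 2.56 and 2.49 (difference 0.27, SE 0.15, limma adjusted p = 0.303), and for DM against Flt3-ITD it was 2.94 and 3.01 against 3.13 and 3.46 (difference -0.32, SE 0.16, limma adjusted p = 0.277).

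**Figure D4:**
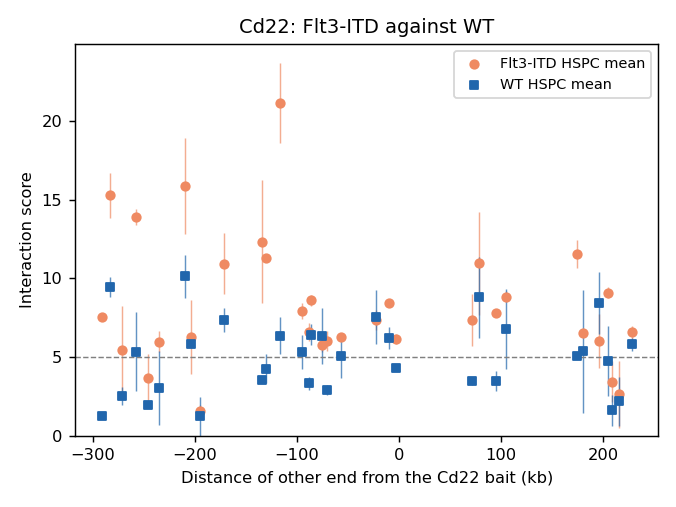
Interaction scores of the 33 listed fragments of the Cd22 bait against their distance from the bait in kb (negative values lie before it), in Flt3-ITD (circles) and WT HSPCs (squares); symbols are the mean of 2 replicates, vertical lines join the replicates and the dashed line marks a score of 5. The fragment 116 kb before the bait scored 18.6 and 23.7 in Flt3-ITD HSPCs against 5.2 and 7.5 in WT HSPCs.

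Among T cell genes, Cd4, the co-receptor for MHC class II, had 2 baits, 1 at each end of the gene, and the gene table used here gives no start site for it. The bait at the lower end (chr6:124841907-124870780) also holds Gpr162 and P3h3 and had 21 pairs, of which 9 were contacts in DM, 13 in Flt3-ITD, 9 in Npm1c and 8 in WT HSPCs. The bait at the upper end (chr6:124881376-124890761) had 17 pairs, among them a pair with the lower bait. The pairs listed for the lower bait did not include the upper bait. All 17 other ends of the upper bait were baits, among them Cops7a, Zfp384 with Ing4, and the housekeeping enzyme Gapdh. The upper bait had 4 contacts in WT neutrophils, and 8 in DM, 10 in Flt3-ITD, 10 in Npm1c and 9 in WT HSPCs. Its contact with Zfp384 and Ing4, 148 kb away, scored 7.7 and 5.8 in WT neutrophils, and 11.5 and 12.9 in DM, 9.9 and 18.8 in Flt3-ITD, 15.9 and 22.3 in Npm1c, and 13.8 and 10.9 in WT HSPCs. It thus stood above 5 in all 10 libraries.

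The upper Cd4 bait was tested in the same way and did not pass in any comparison. Its mean was 2.94 and 2.90 in Flt3-ITD against 2.73 and 2.50 in WT HSPCs (difference 0.31, SE 0.17, limma adjusted p = 0.226), and 3.15 and 2.80 in DM against 2.85 and 2.62 in WT HSPCs (difference 0.25, SE 0.17, limma adjusted p = 0.415). The lower bait had 2.88 and 2.63 in Flt3-ITD against 2.47 and 2.32 in WT HSPCs (difference 0.36, SE 0.17, limma adjusted p = 0.146), and 2.46 and 2.63 in DM against 2.54 and 2.24 in WT HSPCs (difference 0.15, SE 0.17, limma adjusted p = 0.635). These p-values do not show that the groups were alike. A single pair of the upper bait was at 0 in WT: the fragment of Usp5 and Cdca3, 55 kb away, scored 7.9 and 11.9 in DM, 13.3 and 8.4 in Flt3-ITD, 10.7 and 0.0 in Npm1c, and 0.0 and 0.0 in WT HSPCs. In the fit over 8 libraries it did not pass (Flt3-ITD minus WT 3.54, SE 0.95, limma adjusted p = 0.180), while a fit of the Flt3-ITD and WT libraries alone called it (adjusted p = 0.0491).

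Zap70, the kinase that binds the activated T cell receptor, had 4 pairs over 773 kb. Its pair with Cnga3, 451 kb away, scored 11.3 and 10.2 in DM, 12.3 and 20.9 in Flt3-ITD, 9.0 and 11.8 in Npm1c, and 21.4 and 19.7 in WT HSPCs, and was a contact in all 4 groups. Cd5, a scavenger-receptor family protein that dampens T cell receptor signals, had 3 neutrophil pairs and 6 HSPC pairs, of which 3 were contacts in DM, 1 in Flt3-ITD, 1 in Npm1c and 2 in WT HSPCs. Its contact with Ms4a10, 237 kb away, scored 6.8 and 9.4 in WT neutrophils against 5.6 and 5.2 in WT HSPCs. Cd8b1, a chain of the CD8 co-receptor, had 1 pair, in Reep1, 454 kb away, and it was a contact in WT HSPCs alone, at 2.4 and 1.7 in DM, 2.0 and 3.1 in Flt3-ITD, 2.6 and 2.9 in Npm1c, and 6.3 and 6.0 in WT HSPCs. Cd3e, a signalling chain of the T cell receptor complex, had no HSPC pair and 2 neutrophil pairs, in adjacent fragments at Scn4b 125 and 130 kb away, at 5.7 and 7.1 and at 7.1 and 6.5.

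Each of the T lineage transcription factors with a bait had 1 pair. The pair of Tcf7, which starts the T cell programme, joined it to the fragment of Ube2b and Cdkl3, 280 kb away, and scored 6.2 and 5.7 in DM, 1.9 and 1.9 in Flt3-ITD, 3.2 and 2.0 in Npm1c, and 3.6 and 3.5 in WT HSPCs. The pair of Lef1, a related factor of the Wnt pathway, lay 305 kb away and scored 5.6 and 8.3 in DM, 2.7 and 2.4 in Flt3-ITD, 4.3 and 1.0 in Npm1c, and 0.9 and 1.4 in WT HSPCs. Both were contacts in DM HSPCs alone, with no overlap with any other group. The pair of Gata3, a factor of early T and helper T cells, lay 1139 kb away and was a contact in Flt3-ITD HSPCs alone, at 0.0 and 0.0 in DM, 7.1 and 6.4 in Flt3-ITD, 3.4 and 2.1 in Npm1c, and 0.1 and 4.9 in WT HSPCs. A single pair that is listed because 1 group reached 5 had to be high in that group.

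Ccr7, the chemokine receptor that brings lymphocytes and dendritic cells to lymph nodes, had 11 pairs on 1 side of its bait (chr11:99154978-99162567), 111 to 184 kb away in chr11:98972307-99050965, a stretch that holds ends of Rara, Gjd3, Top2a and Igfbp4. All 11 were contacts in DM HSPCs, 3 in Flt3-ITD, 1 in Npm1c and 1 in WT HSPCs. By library, 11 and 11 reached 5 in DM, 6 and 5 in Flt3-ITD, 2 and 2 in Npm1c, and 5 and 2 in WT HSPCs, and the median score was 7.12 and 9.50 in DM, 5.09 and 4.95 in Flt3-ITD, 3.61 and 3.87 in Npm1c, and 4.83 and 3.80 in WT HSPCs. Both DM libraries stood above the other 6. The 13 other baits that contacted the same fragments had 26 pairs, with 11 contacts in DM, 17 in Flt3-ITD, 7 in Npm1c and 14 in WT HSPCs, so the DM count was not the highest there.

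Because DM itself brought 8 of the 11 Ccr7 pairs into the list, with no other group at 5 in both replicates, only 3 pairs were left for the test of DM against WT. Over them the mean was 2.96 and 3.27 in DM and 2.42 and 2.64 in WT HSPCs (difference 0.58, SE 0.20, limma adjusted p = 0.151 with a minimum of 3 pairs). Ccr7 in Flt3-ITD against WT HSPCs had 2.71 and 2.58 against 2.55 and 2.05 (difference 0.35, SE 0.18, limma adjusted p = 0.194).

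Eomes, a T-box factor of NK and effector T cells, had 8 pairs in neighbouring fragments at Azi2 and Cmc1, 408 to 437 kb before its bait, of which 3 were contacts in DM, 3 in Flt3-ITD, 2 in Npm1c and 1 in WT HSPCs. With a minimum of 3 pairs its mean was 2.44 and 2.68 in DM against 2.16 and 1.76 in WT HSPCs (difference 0.60, SE 0.25, limma adjusted p = 0.211), and 2.20 and 2.58 in Npm1c against 1.97 and 1.81 in WT HSPCs (difference 0.50, SE 0.20, limma adjusted p = 0.413). Ncr1, the activating NK cell receptor NKp46, had 1 pair, 324 kb away in Lair1, which scored 5.5 and 6.6 in DM, 3.2 and 3.5 in Flt3-ITD, 6.8 and 5.2 in Npm1c, and 1.9 and 3.9 in WT HSPCs. It was a contact in the DM and Npm1c groups, whose values lay above those of the other groups, an order that its listing through these scores favours.

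**Figure D5:**
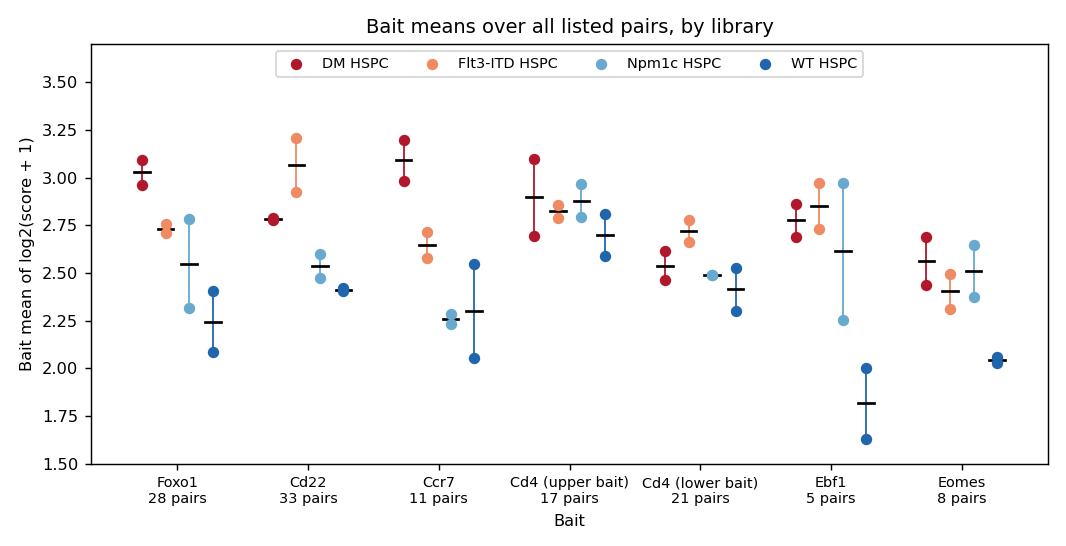
Mean of log2(score + 1) over all listed HSPC pairs of 7 member baits in each library (points, joined within a group; black bars are group means) for DM, Flt3-ITD, Npm1c and WT HSPCs. For Foxo1 and Ccr7 both DM libraries are the highest, and for Cd22 both Flt3-ITD libraries are the highest; all pairs are shown, including those that DM or Flt3-ITD brought into the list.

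Among the member baits with at least 3 pairs, the lowest differences from WT in DM HSPCs were -0.14 for Blnk, 0.15 for the lower Cd4 bait and 0.25 for the upper Cd4 bait. In Flt3-ITD HSPCs they were 0.28 for Cd79b, 0.29 for Eomes and 0.31 for the upper Cd4 bait. In Npm1c HSPCs the highest were 0.65 for Ebf1, 0.50 for Eomes and 0.26 for the upper Cd4 bait, and the lowest were -0.11 for Cd79b, -0.08 for the lower Cd4 bait and -0.04 for Ccr7. None of these passed.

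Over the member baits with at least 10 pairs, libraries of the groups were also compared for overlap. In Flt3-ITD against WT HSPCs all 5 member baits tested had both Flt3-ITD libraries above both WT libraries, as did 58.7% of all tested baits. In DM against WT HSPCs 2 of 4 did so (Cd22 and Foxo1), against 34.8% of all, and in Npm1c against WT HSPCs 1 of 5 (Cd22), against 29.9%. In DM against Npm1c HSPCs 3 of 4 stood higher without overlap (Cd22, Foxo1 and the lower Cd4 bait), against 20.4% of all. In DM against Flt3-ITD HSPCs Foxo1 was higher, as were 8% of all baits, and Cd22 and the lower Cd4 bait were lower, as were 47.3%.

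No member bait was called by limma in the other comparisons. In Npm1c against WT HSPCs 0 of 5 were called and 0 had an unadjusted p under 0.05, where 0.102% of all 1960 baits were called. In DM against Npm1c HSPCs 0 of 4 were called (0.868% of all baits) and in DM against Flt3-ITD HSPCs 0 of 4 (4.3% of all baits), with 0 at an unadjusted p under 0.05 in each. The interaction sets the DM difference from WT against the added differences of both single mutants from WT. It involves all 4 HSPC groups, so it was computed over every listed pair, chosen in part by the scores it compares. It called 0 of 5 member baits, with 0 at an unadjusted p under 0.05, and 7.48% of all baits. As a description, its values were 0.49 for Ccr7, 8 of whose 11 pairs DM alone brought into the list, -0.41 for Cd22 and -0.01 for Foxo1.

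In the test of single pairs, limma called 0 of the 155 member pairs in each HSPC comparison. Over all 88421 pairs 0.31% were called in Npm1c against WT, 0.568% in Flt3-ITD against WT, 0.576% in DM against WT, 0.561% in DM against Npm1c, 0.458% in DM against Flt3-ITD and 0.564% in the interaction. Member pairs at an unadjusted p under 0.05 numbered 21 (13.5%), 26 (16.8%), 41 (26.5%), 24 (15.5%), 13 (8.39%) and 13 (8.39%) in the same order, beside 12.5%, 14.2%, 19.5%, 17.7%, 11.96% and 14.4% of all pairs. The listing of these pairs rested in part on the scores of the groups compared. Over the pairs chosen without those scores, limma again called 0 member pairs in each comparison of 2 groups, and the median member difference from WT was 0.32 in DM, 0.34 in Flt3-ITD and 0.12 in Npm1c HSPCs, beside 0.10, 0.23 and 0.12 over all such pairs. In DM against WT, 19 of the 103 member pairs so chosen had an unadjusted p under 0.05 (18.4%), beside 13.1% of all such pairs. The member share was 13.8% beside 11.2% in Flt3-ITD against WT and 10% beside 8.86% in Npm1c against WT. It was below that of all such pairs in DM against Npm1c (9% beside 11.6%) and in DM against Flt3-ITD (5.48% beside 8.6%).

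The members had 16 contacts in WT neutrophils against 41 in WT HSPCs, 0.39 per WT HSPC contact, beside 0.82 over all genes, 1.22 for the other lymphoid genes and 3.54 for mature neutrophil genes. These counts include the baits of Cd22, Foxo1, Cd4 and Ccr7, which had the most HSPC pairs. Without them the members had 8 contacts in WT neutrophils against 7 in WT HSPCs, a ratio of 1.14. Leaving out the baits richest in HSPC pairs favours a higher ratio, so this value is a description. Baits with at least 1 contact numbered 7 of 23 in WT neutrophils (30.4%, against 53.2% of all gene baits) and 10 of 23 in WT HSPCs (43.5%, against 60.0%). Of the 41 WT HSPC contacts, 6 were also neutrophil contacts (14.6%, against 25.6% over all genes). No member bait had the 10 pairs needed for the bait test, which called 14.3% of the 112 baits tested. In the pair test limma called 0 of the 11 member pairs in both lists and 0.206% of all 14051 pairs, and 2 of the 11 (18.2%) had an unadjusted p under 0.05, beside 19.9% of all. The neutrophil list holds only contacts, so a pair absent from it has no neutrophil score.

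Among the other lymphoid genes the bait of Cd74, the invariant chain of antigen presentation, rose in Flt3-ITD against WT (1 of 11 baits tested, where 7.21% of all baits were called) and, with that of Cd27, a co-stimulatory receptor, in DM against WT HSPCs (2 of 10 baits tested, where 7.55% of all baits were called). In the pair test, whose calls rest in part on the listing, pairs of the NK cell receptors Cd244a and Klrk1 held the calls among 371 pairs in Flt3-ITD against WT (3 higher), DM against Npm1c (1 higher and 1 lower), DM against Flt3-ITD (4 lower) and the interaction (3 lower), and a pair of Cd244a that in Npm1c against WT HSPCs (1 higher). None was called in DM against WT HSPCs. Of 62 pairs tested in WT neutrophils against WT HSPCs, 1 pair of Cd27 was called higher. The shares of all pairs called in these comparisons are those of the member pair tests.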

How the data were processed

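Promoter-capture Hi-C scores of 10 libraries (5 groups, 2 biological replicates each) were used. Per the labels' protocols, cells were fixed in 1% formaldehyde for 10 minutes, chromatin was cut with HindIII, and 39684 probes captured 22047 promoters; per the submitters' processing notes the build was mm10. Each deposited file gives 1 interaction score per fragment pair, never negative, from an aligner and caller not given in the sources used here.

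Log2(score + 1) was tested per pair and per bait with limma 3.58.1 in R 4.3.3 (two-sided, Benjamini-Hochberg at 0.05), over 88421 pairs on autosomes and X; tables were made with Python 3.11.15 and pandas 2.3.3. Replicates were biological per the labels. Tested on simulated data for DM minus WT, the bait test (1841 baits) recovered 89 of 100 shifts of 1 and 99 of 100 of 2, and the pair test (88421 pairs) 47 of 100 of 3 and 89 of 100 of 6. False calls numbered 6 in the bait test and 5 in the pair test. The simulated bait shifts were larger than the differences of the called member baits, so recovery at those sizes was not tested. The members, lists and tests were chosen with earlier results of these data known. Every member was accounted for. Library values were given for member baits with at least 10 pairs, though not in every comparison, and for called pairs. For the rest, counts, ranges and the 3 highest and 3 lowest differences from WT among baits with at least 3 pairs were given. Library values of other pairs were chosen after their values were seen. Alternatives were normalization, pseudocount, minimum of pairs, median, pair choice, libraries in the fit, replicate block, score threshold and leaving out each library. Numbers in the titles were shared between groups but did not pair the samples.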

Additional observations from a re-analysis of the deposited data

How the results depend on the processing

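Of the 2 calls on member baits, neither held throughout. The count of 1 member bait called in Flt3-ITD against WT HSPCs was 0 with quantile normalization, a pseudocount of 0.5, the replicate block, the 2 groups' libraries alone, a minimum of 1, 3 or 5 pairs or the median over pairs, and 0 to 2 when 1 library was left out; the 2 were Ccr7 (adjusted p = 0.0353) and Foxo1 (adjusted p = 0.0422) without WT replicate 1. The count of 1 in DM against WT was 0 with quantile normalization, the replicate block, the 2 groups alone, a minimum of 1, 3 or 5 pairs or the median, 0 to 1 when 1 library was left out, and 2 (Ccr7 and Foxo1) over all listed pairs, 8 of the 11 for Ccr7 being listed through DM alone. A lower minimum tests more baits, and fewer libraries leave fewer degrees of freedom; otherwise the cause was not tested. Counts of 0 became 1 in DM against Npm1c over all listed pairs (Ccr7), in the interaction with a minimum of 1 pair (Tcf7, whose pair was listed through DM alone), and, for pairs with the 2 groups alone, in Flt3-ITD against WT (Cd4 with Usp5 and Cdca3) and DM against Flt3-ITD (Gata3, whose pair was listed through Flt3-ITD alone). The differences of Foxo1 in DM against WT ran from 0.47 to 0.96 and of Cd22 in Flt3-ITD against WT from 0.34 to 0.80 over 13 alternatives each. With the replicate block Foxo1 had 0.71 (adjusted p = 0.0567) and Cd22 0.61 (adjusted p = 0.0637); deviations of same-numbered libraries correlated at -0.012 to 0.061, so the numbers did not pair the samples. Quantile normalization gave a median over all baits of 0.01 in Flt3-ITD against WT (0.28 without it) and -0.09 in DM against WT (0.09 without it), and the interaction then called 84 baits higher and 142 lower (8 and 204 without it).

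At a score of 10 or more in both replicates, member contacts numbered 0 in WT neutrophils, and 8 in DM, 8 in Flt3-ITD, 4 in Npm1c and 2 in WT HSPCs; with the threshold of 5 on the replicate mean, there were 117 in DM, 110 in Flt3-ITD and 80 in Npm1c HSPCs, against 71 in WT HSPCs. Depth is unknown, and only 2 libraries a group limit the precision.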
